A study of Mus musculus with 24 samples.

Results

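Among 12 mammary tumour libraries labelled WT for Nr0b2, 3 held more RNA from genes of chromosome 11 than the other 9. These 3 libraries, WT 13, WT 19 and WT 23, are called high here, and the remaining 9 are called other. They are 12 of the 24 libraries of the series. The sets were chosen on the reads themselves and on no label: log2 CPM, the reads of a gene scaled to a common library total, of genes with a mean of at least 5 CPM were centred per gene over the 24 libraries, and the median over 1003 chromosome 11 genes was taken in each library. Levels of chromosome 11 genes are therefore given as a description, with no test. Genes of the other chromosomes did not enter the choice and were tested.

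All the tumours came from MMTV-PyMT mice, in which a mouse mammary tumour virus promoter drives the polyoma virus middle T antigen in the mammary epithelium. The 3 high libraries and the 9 other libraries share the label WT, which stands for NR0B2+/+ PyMT+, and 12 further libraries are labelled KO, for NR0B2-/- PyMT+. Nr0b2 encodes SHP, a nuclear receptor that lacks a DNA-binding domain and represses other nuclear receptors. The labels give no age, batch or animal number. Tumours were taken at a volume of 2000 mm3, and RNA came from whole homogenised tumour, so fewer cells of a type and less RNA per cell cannot be told apart. It is not stated that each tumour came from a separate animal, and the p-values reflect variation among the sampled tumours only.

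Reads of the targeted gene ran opposite to the labels, and the reason was not tested. Nr0b2 had 0 reads in each of the 3 high libraries and in 8 of the 9 other libraries, 1 read in WT 24, and between 3 and 71 reads in the libraries labelled KO. All 12 libraries compared here carry the same label, so the comparison of the high with the other libraries does not rest on it. Library totals were 27150873 to 29557910 counted reads in the high set and 21685477 to 38022182 in the other set. Luminal epithelial markers such as Epcam, Krt8 and Krt18 were present in every library: the 21 listed markers off chromosome 11 summed to 6729 to 9810 CPM in the high set and 6355 to 10171 CPM in the other set, and none was at 0 across a set.

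Chromosome 11 of the mouse is rich in genes and corresponds in large part to human chromosome 17. It carries the genes of 2 receptors of the epidermal growth factor family, Egfr and Erbb2, the tumour suppressor Trp53, the type I keratins, the Hoxb cluster and many genes for ribosomal proteins and proteasome subunits. In tumours driven by middle T antigen, the oncoprotein docks Src kinases, Shc with Grb2, and phosphatidylinositol 3-kinase at the membrane, and Grb2 lies on chromosome 11 as well. DNA was not measured in these files, and the number of copies of a chromosome was not analysed here.

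Promoters of 3 genes on the chromosome are printed because the genes differ in role, position and promoter sequence and were all at higher median level in the high set. Each runs from 250 bases before to 50 bases after the annotated start, 5′ to 3′ on the gene's own strand, from RefSeq on GRCm38.p6. The first listed start of each gene was used. That start lies 4707 bases inside the outer end of the annotated gene for Rpl19, 23 bases inside it for Ccng1 and 8669 bases inside it for Grb2, so the Rpl19 and Grb2 windows belong to internal annotated starts. Capitals mark the letters TATAAA.
Rpl19 (chr11:98026460-98026759, plus strand): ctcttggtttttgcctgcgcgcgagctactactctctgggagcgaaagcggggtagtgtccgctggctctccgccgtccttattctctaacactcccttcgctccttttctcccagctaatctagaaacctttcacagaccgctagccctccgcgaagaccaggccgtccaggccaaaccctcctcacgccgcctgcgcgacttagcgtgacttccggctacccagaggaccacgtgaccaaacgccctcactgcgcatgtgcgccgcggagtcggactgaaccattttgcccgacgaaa
Ccng1 (chr11:40755237-40755536, minus strand): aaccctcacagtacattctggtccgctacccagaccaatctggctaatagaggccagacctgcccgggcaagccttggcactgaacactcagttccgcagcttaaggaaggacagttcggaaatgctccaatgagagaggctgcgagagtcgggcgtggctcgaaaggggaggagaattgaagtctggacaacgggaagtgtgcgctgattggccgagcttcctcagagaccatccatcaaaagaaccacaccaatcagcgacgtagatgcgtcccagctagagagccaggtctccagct
Grb2 (chr11:115699879-115700178, minus strand): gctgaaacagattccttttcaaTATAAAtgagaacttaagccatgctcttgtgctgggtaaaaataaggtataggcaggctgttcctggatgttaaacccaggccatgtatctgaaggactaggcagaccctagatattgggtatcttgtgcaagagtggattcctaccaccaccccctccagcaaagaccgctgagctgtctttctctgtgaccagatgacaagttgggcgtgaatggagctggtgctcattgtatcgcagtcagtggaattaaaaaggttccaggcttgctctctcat

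The 6 letters TATAAA were searched on both strands, where the opposite strand reads TTTATA. They were found in the window at the internal Grb2 start and were not in these windows of Rpl19 and Ccng1. Among genes with a mean of at least 5 CPM, 816 of 996 on chromosome 11 and 9420 of 11766 on all chromosomes had a promoter in the table. The motif was in 6.74% of the chromosome 11 promoters and in 6.74% of all of them. The median log2 fold change, high over other, was 0.27 for 55 chromosome 11 genes with the motif and 0.29 for 761 without it. Off chromosome 11 it was -0.03 for 580 genes with the motif and -0.01 for 8024 without it. Chromosome 11 promoters with at least 60% G and C had a median of 0.30 over 472 genes, and those below 60% had 0.28 over 344 genes.

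The chromosome 11 median was 0.21 in WT 13, 0.31 in WT 19 and 0.22 in WT 23 on the centred log2 scale. In the other set it was lowest in WT 14 at -0.13, had a median of -0.07 over the 9 libraries, and was highest in WT 24 at 0.13. The sets averaged 0.25 ± 0.06 (SD, n = 3) and -0.04 ± 0.10 (SD, n = 9), a difference of 0.28. The nearest library inside the high set was WT 13 at 0.21, and the nearest outside were WT 24 at 0.13 and WT 17 at 0.12. Those 2 libraries stood closer to the high set than to the remaining 7 others, which lay between -0.13 and -0.03. The libraries labelled KO ran from -0.10 to 0.05, below all 3 high libraries. The medians of genes off chromosome 11 lay between -0.03 and -0.01 in the high set and between -0.04 and 0.04 in the other set.

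**Figure D1:**
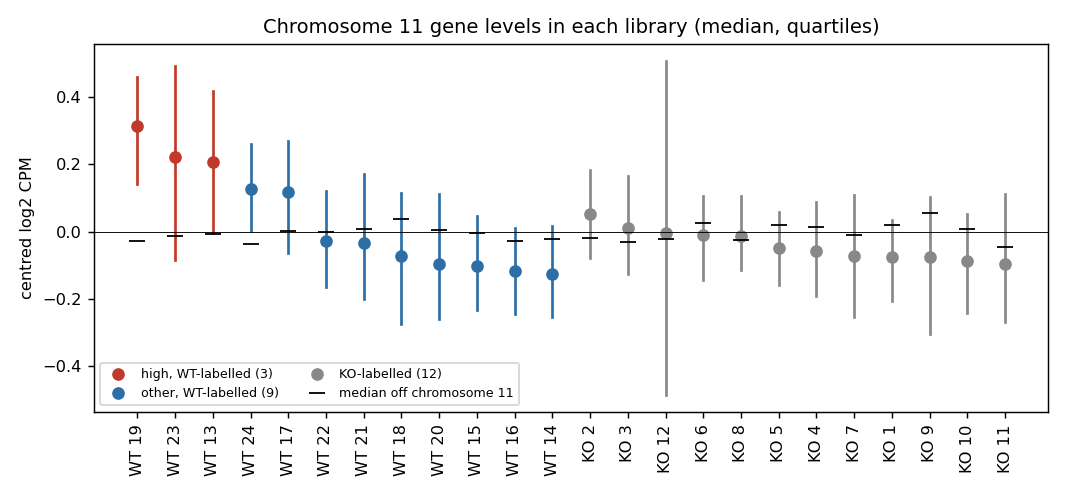
Centred log2 CPM of 1003 chromosome 11 genes in each library: points are medians, vertical lines run between the quartiles, and short black bars are medians of genes off chromosome 11. The 3 high libraries (left) sit between 0.21 and 0.31, WT 24 and WT 17 follow at 0.13 and 0.12, and the libraries labelled KO (right) lie between -0.10 and 0.05.

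The shift was spread over many genes. In WT 13, 74.5% of the chromosome 11 genes lay above their own mean over the 24 libraries, in WT 19 84.5% and in WT 23 69.7%. The quartiles were widest in WT 23, at -0.08 and 0.49, and genes off chromosome 11 were also widest there among the 12 libraries, with quartiles of -0.34 and 0.26. The share of counted reads from chromosome 11 was 10.8% in WT 13, 11.9% in WT 19 and 10.9% in WT 23, against 8.82% to 10.6% in the other libraries. The means of this share were 11.2% ± 0.631 (SD, n = 3) in the high set and 9.38% ± 0.642 (SD, n = 9) in the other set.

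Fold changes of single genes came from edgeR's quasi-likelihood fit to the 12 libraries, which tested 17125 genes. Over 1392 genes on chromosome 11 the median log2 fold change was 0.27, with quartiles of 0.10 and 0.42, and 81.9% of the genes were above 0. Over 15733 genes elsewhere the median was -0.01, with quartiles of -0.17 and 0.15, and 47.9% were above 0. Among genes with a mean of at least 5 CPM in these libraries, 996 on chromosome 11 had a median of 0.29, which is a 1.22-fold higher level in the high set, and 90.1% of them were above 0. The shift was present at every level of expression. The median was 0.30 for genes between 5 and 20 CPM, 0.30 between 20 and 100 CPM and 0.26 from 100 CPM up. Below 5 CPM it was 0.16, with wider quartiles of -0.19 and 0.51. Protein-coding genes had a median of 0.28 over 1216 genes, and long non-coding RNA genes 0.21 over 122.

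**Figure D2:**
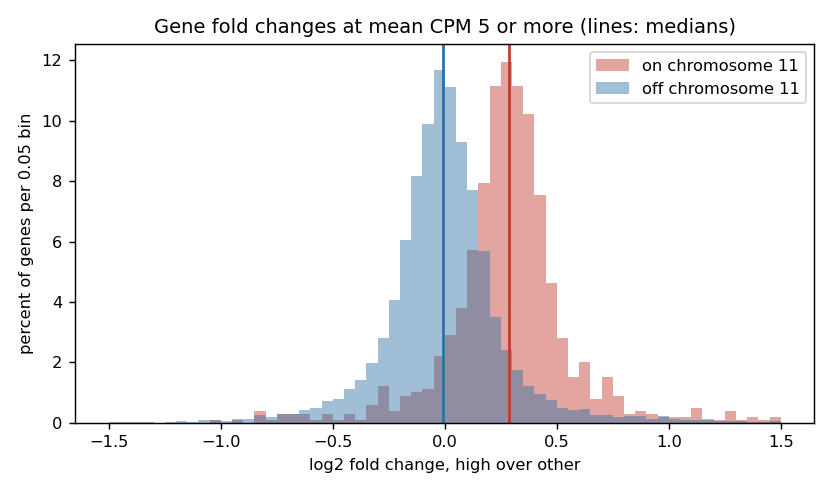
Distribution of log2 fold changes, high over other, for 996 genes on chromosome 11 (red) and 10770 genes elsewhere (blue) with a mean of at least 5 CPM, as the percent of each set in bins of 0.05; genes beyond 1.5 in either direction are not drawn. The chromosome 11 distribution has its median at 0.29 and the other at -0.01.

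The shift was present at every base composition of the transcripts. In 5 bins of transcript G and C content, each with 196 chromosome 11 genes, the chromosome 11 medians ran from 0.26 to 0.31. Genes off the chromosome in the same bins had medians from -0.02 to 0.04.

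In 109 of the 1392 chromosome 11 genes, 7.83%, all 3 high libraries lay above all 9 other libraries. Over all genes tested the share was 0.946%, and off chromosome 11 it was 0.337%, or 53 genes. The reverse, with all 3 high libraries below all 9 others, was met by 0 chromosome 11 genes and by 79 genes elsewhere, 0.502% of those and 0.461% of all genes tested. Since the sets were chosen on chromosome 11, the counts of chromosome 11 genes in both directions are fixed in part by the choice and nothing is read from them.

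Along the chromosome, the shift between the sets was present in every window of 10 Mb. The chromosome was divided into 13 windows of 10 Mb, which held between 14 and 136 genes with a mean of at least 5 CPM. The median log2 fold change per window was lowest in window 2 at 0.21 and highest in window 13 at 0.37, and it was above 0 in 13 of 13. Each high library was above 0 in every one of these windows. The window medians ran from 0.09 to 0.27 in WT 13, from 0.23 to 0.42 in WT 19 and from 0.04 to 0.36 in WT 23. WT 23 was the most uneven of the 3, with its lowest value in window 2, the window with the fewest genes, and its highest in window 13. In 24 windows of 5 Mb, WT 13 and WT 19 were above 0 in all 24, but WT 23 in 21. Its 3 windows below 0 stood at -0.82, over 5 genes, -0.011 and -0.00095.

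The other set was not uniform along the chromosome either. WT 17 was above 0 in 13 of 13 windows, between 0.05 and 0.16, and WT 24 in 13 of 13, between 0.04 and 0.18. WT 14, WT 15, WT 16 and WT 20 were above 0 in 0 of 13. WT 21 was different from both patterns. Its chromosome median was -0.03, but windows 12 and 13 stood at 0.33 and 0.36, as high as WT 19 and WT 23 there.

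In steps of 2.5 Mb, the WT 21 median was -0.10 in the step that ends at 105 Mb, over 22 genes, and 0.35 in the next, over 29 genes. The split at 105 Mb was chosen after these values were seen. Before it, 803 genes had a median of -0.09 in WT 21, and from it on, 200 genes had 0.34. The same 200 genes had medians of 0.23 in WT 13, 0.33 in WT 19 and 0.31 in WT 23. In the other 8 libraries of the other set they ran from -0.18 to 0.13. Genes past this point include Grb2, Prkca, Sox9, Itgb4 and Timp2. By the median over the 200 genes, the other set holds 1 library with a shift like that of the high set. Single genes did not all follow it. In WT 21, Grb2 and Sox9 were the highest of the other set, at 119 and 225 CPM, but Timp2 was the lowest, at 133 CPM.

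**Figure D3:**
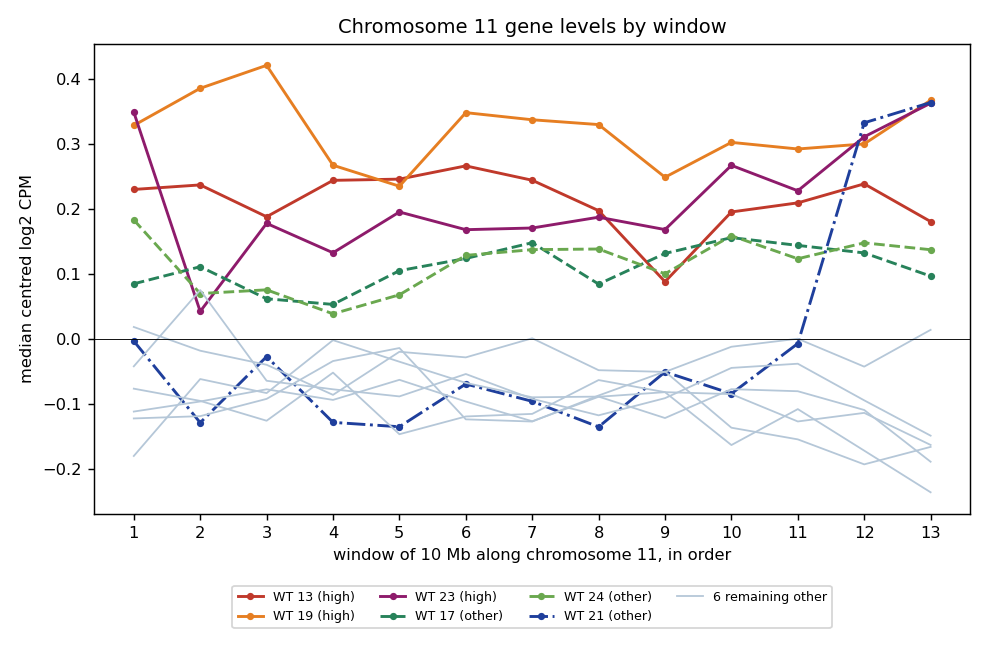
Median centred log2 CPM in 13 consecutive windows of 10 Mb along chromosome 11, 1 line a library. The 3 high libraries stay above 0 in these windows, WT 17 and WT 24 run between 0.04 and 0.18, and WT 21 stands at -0.01 in window 11 and at 0.33 in window 12.

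Single genes are described by role. CPM is not corrected for gene length, so levels are compared between libraries and not between genes. Coordinates of genes are those of the count files, on GRCm39.

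The first list held growth factor receptors, adaptors, other signalling genes and neighbours of Erbb2 such as Mien1. Of its tested members, 17 of 19 lay above 0, with a median log2 fold change of 0.29. Over all 1392 tested chromosome 11 genes, 81.9% lay above 0, with a median of 0.27, the background for the chromosome 11 lists that follow. Erbb2 (chromosome 11, 98303310 to 98328542, plus strand) encodes the receptor HER2. It had 139 CPM in WT 13, 111 in WT 19 and 135 in WT 23, and in the other set a lowest value of 75.1, a median of 84.5 and a highest of 200 CPM. The 3 high libraries lay above 7 of the 9 others, and the sets overlapped because of WT 17, the highest of all, and WT 24, at 114 CPM. The log2 fold change was 0.37 ± 0.27 (SE), and 0.58 without WT 17. Grb2 (115534871 to 115599423, minus strand), the adaptor that links receptors to Ras, was even across the high set, at 112, 116 and 111 CPM, against 74.5, 86.3 and 119 CPM for the lowest, median and highest of the other set. Its log2 fold change was 0.30 ± 0.13 (SE), and its highest other library overlapped the high set.

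Egfr (16700153 to 16868158, plus strand), the receptor for epidermal growth factor, was less separated. It had 187 and 203 CPM in WT 13 and WT 19 but 133 CPM in WT 23, against 105 to 184 CPM in the other set with a median of 165, and its log2 fold change was 0.17 ± 0.17 (SE). Prkca, a protein kinase C, followed the same order, with 187, 264 and 99.3 CPM against 79.7 to 188 CPM. Itgb4, the laminin receptor subunit of epithelial cells, had 115, 121 and 87.6 CPM against 50.5 to 160 CPM. For these 3 genes WT 23 was the lowest of the high set and lay within the range of the other set.

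Ribosomal protein and proteasome genes were among the most even. In the list of metabolism and protein turnover genes, 23 of 25 tested members were above 0, with a median of 0.31. Of all chromosome 11 genes with a mean of at least 5 CPM, 90.1% were above 0, with a median of 0.29. The 6 tested proteasome genes on the chromosome had log2 fold changes from 0.20 to 0.47. Rpl19 (97912829 to 97921319, plus strand), a protein of the large ribosomal subunit, had 893 CPM in WT 13, 916 in WT 19 and 989 in WT 23, against 582, 645 and 808 CPM for the lowest, median and highest of the other set. All 3 high libraries lay above all 9 others, and the log2 fold change was 0.45 ± 0.12 (SE). Rpl23, also of the large subunit, had 968, 1078 and 1130 CPM against 709 to 986 CPM, an overlap of the lowest high library with the top of the other set. Ribosomal protein genes have many processed pseudogenes, and reads shared with such copies could be split or lost, so these levels are less certain. P4hb, a protein disulfide isomerase of the endoplasmic reticulum, and Aldoc, a glycolytic aldolase, had log2 fold changes of 0.06 and 0.02. Several other members outside the ribosomal protein and proteasome genes were also near 0. The levels of P4hb and Aldoc varied widely between libraries, Aldoc from 449 to 997 CPM in the high set and from 366 to 1065 CPM in the other set.

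Among the genes of cell division, 14 of 16 were above 0, with a median of 0.26. Ccng1 (40639379 to 40646155, minus strand), which encodes cyclin G1 and is a known transcriptional target of p53, had the largest value of the list. It stood at 319 CPM in WT 13, 301 in WT 19 and 408 in WT 23, against 161, 191 and 294 CPM for the lowest, median and highest of the other set. The sets did not overlap, and the log2 fold change was 0.77 ± 0.17 (SE). Nme2, a nucleoside diphosphate kinase, had 256, 324 and 399 CPM against 174 to 290 CPM, and Cdc27, a subunit of the anaphase-promoting complex, had 88.7, 96.2 and 145 CPM against 69.5 to 98.9 CPM. Top2a, the topoisomerase of dividing cells, did not follow the chromosome: it had 86.6, 167 and 404 CPM, against 116 to 350 CPM, and a log2 fold change of 0.01 ± 0.39 (SE). WT 13 held less and WT 23 held more Top2a than any other library of the 12.

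Tumour suppressor and repair genes were above 0 in 14 of 15 cases, at a median of 0.16. Trp53 (69471174 to 69482699, plus strand), which encodes p53, had 88.2 and 87.3 CPM in WT 13 and WT 19 and 188 CPM in WT 23, against 73.6, 92.2 and 163 CPM for the lowest, median and highest of the other set. Only WT 23 lay outside the other range, and the log2 fold change was 0.23 ± 0.27 (SE), or -0.24 without WT 23. Prkar1a, the regulatory subunit of protein kinase A, was more even, at 555, 549 and 531 CPM against 366, 455 and 546 CPM. Rpa1, a single-strand DNA-binding protein of replication and repair, had 149, 139 and 144 CPM against 89.4, 107 and 144 CPM. Nf1, a Ras GTPase-activating protein, and Nf2, which encodes merlin, had log2 fold changes of 0.16 and 0.21.

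Transcription factor genes were mixed, with 13 of 23 above 0 and a median of 0.05. Ncor1 (62207132 to 62348200, minus strand), a corepressor of nuclear receptors, had 261, 260 and 300 CPM in the high set against 201, 219 and 252 CPM, and all 3 high libraries lay above all 9 others. Its log2 fold change was 0.28 ± 0.10 (SE). Stat3, which carries cytokine signals, was nearer to even, at 555, 600 and 482 CPM against 379 to 582 CPM. Xbp1, the transcription factor of the unfolded protein response, spanned a far wider range: 1337 CPM in WT 13, 2651 in WT 19 and 448 in WT 23, against 972 to 2435 CPM. Its log2 fold change was 0.04 ± 0.41 (SE), with WT 23 the lowest and WT 19 the highest of the 12 libraries.

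The 6 tested homeobox genes of the Hoxb cluster, singled out after their values were seen, had log2 fold changes from -0.44 ± 0.72 (SE) for Hoxb4 to -0.87 ± 0.56 (SE) for Hoxb7. For 5 of the 6, Hoxb7 being the exception, the standard error was larger than the fold change.

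Genes of matrix and immune cells showed little of the shift as groups, and keratin and junction genes had a median below the 0.27 of all chromosome 11 genes. Type I keratin and junction genes were above 0 in 7 of 11 cases with a median of 0.16, matrix and adhesion genes in 7 of 14 with -0.01, and chemokine and immune genes in 11 of 24 with -0.11. Krt14, a keratin of basal cells, had 26.7, 24.8 and 184 CPM against 38.9 to 144 CPM, so that 2 of the high libraries lay below and 1 above the whole other set. Krt17, of basal and stressed epithelium, had 21.9, 12.6 and 216 CPM against 4.72 to 94.6 CPM. Its log2 fold change of 1.36 rested on WT 23 and was -0.94 without it. Jup, the junction protein plakoglobin, had 450, 377 and 494 CPM against 351 to 440 CPM.

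Col1a1, the chain of fibrillar collagen I, had 235, 217 and 274 CPM against 180, 332 and 902 CPM for the lowest, median and highest other library, a log2 fold change of -0.67 ± 0.44 (SE). Among fibroblast markers off chromosome 11, 14 of 15 had log2 fold changes below 0, with a median of -0.52, and their sum was 1482 to 1945 CPM in the high set against 1321 to 4709 CPM in the other set. No marker of this list was at 0 across a set. Igfbp4, an insulin-like growth factor binding protein, went the other way, with 288, 87.9 and 342 CPM against 77.3 to 171 CPM. Among immune genes, Clec10a, a lectin of macrophages and dendritic cells, had 7.37, 5.41 and 2.41 CPM against 3.97 to 18.1 CPM, while the interferon-induced GTPase gene Igtp had 267, 98.7 and 66.0 CPM against 35.6 to 125 CPM. The part of cell makeup in these values was not tested.

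**Figure D4:**
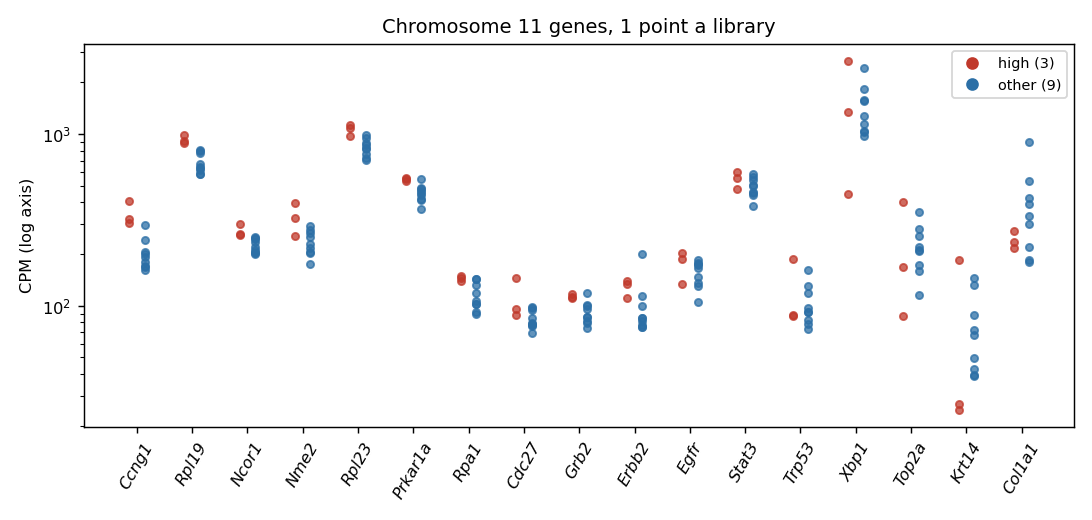
CPM of 17 chromosome 11 genes on a log axis, 1 point a library, with the high libraries in red left of the other libraries in blue. Ccng1, Rpl19 and Ncor1 do not overlap between the sets, while Xbp1, Top2a and Krt14 spread over a wide range in the high set.

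Some of the largest fold changes on the chromosome at a mean of at least 5 CPM belonged to genes high in 1 or 2 libraries rather than in all 3. Camk2b, a calcium-dependent kinase subunit, had 3.51, 13.6 and 64.0 CPM against 1.72 to 17.1 CPM. Otx1, a homeobox gene, had 15.7, 95.0 and 21.1 CPM against 6.85 to 35 CPM. Meis1, another homeobox gene, had 88.2 CPM in WT 13 but 7.17 and 2.73 CPM in WT 19 and WT 23, against 2.63 to 69.4 CPM. Their log2 fold changes of 1.74, 1.47 and 1.45 are far above the chromosome's median of 0.27 and have standard errors of 0.75, 0.58 and 1.08. They were 0.059 for Camk2b without WT 23, 0.22 for Otx1 without WT 19 and -1.25 for Meis1 without WT 13. Some other large values rested less on 1 library. Without single libraries, Sectm1a, at 1.66, ran from 1.23 to 2.11, and Kcnj16, at 1.49, from 0.62 to 2.08. At the other end, Mfap4, a microfibril-associated matrix protein, had 8.85, 4.71 and 6.60 CPM against 4.28 to 32.0 CPM, with a log2 fold change of -1.04 ± 0.59 (SE).

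Other chromosomes were compared by their median in each library. Among 19 chromosomes, each with at least 100 genes at a mean of 5 CPM or more, none was called by an exact two-sided permutation test over the 220 ways to choose 3 of 12 libraries. The smallest p this test can give is 0.00455, and a single chromosome cannot have an adjusted p below 0.0864, so the absence of a call for any 1 chromosome was set by the design. The lowest p was 0.0136 for chromosome 12, at -0.05 ± 0.01 (SD, n = 3) in the high set and 0.01 ± 0.03 (SD, n = 9) in the other set, with an adjusted p of 0.259.

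Single libraries of both sets did stand apart on other chromosomes. Chromosome 7 was at 0.18 in WT 19 and at 0.22 in WT 24, above 0 in 15 of 15 windows in each. Chromosome 16 was at 0.27 in WT 13 and at 0.34 in WT 22, above 0 in 10 of 10 windows in each, and chromosome 17 was at 0.33 in WT 22. In WT 21, chromosome 4 had a median of -0.09, but its 272 genes from 130 Mb on had -0.60. The point at 130 Mb was chosen after the values were seen. WT 23 had no other chromosome at 0.10 or more, so chromosome 11 was the sole one past that level there. Each high library thus had its highest chromosome median on chromosome 11 except WT 13, in which chromosome 16 was higher.

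**Figure D5:**
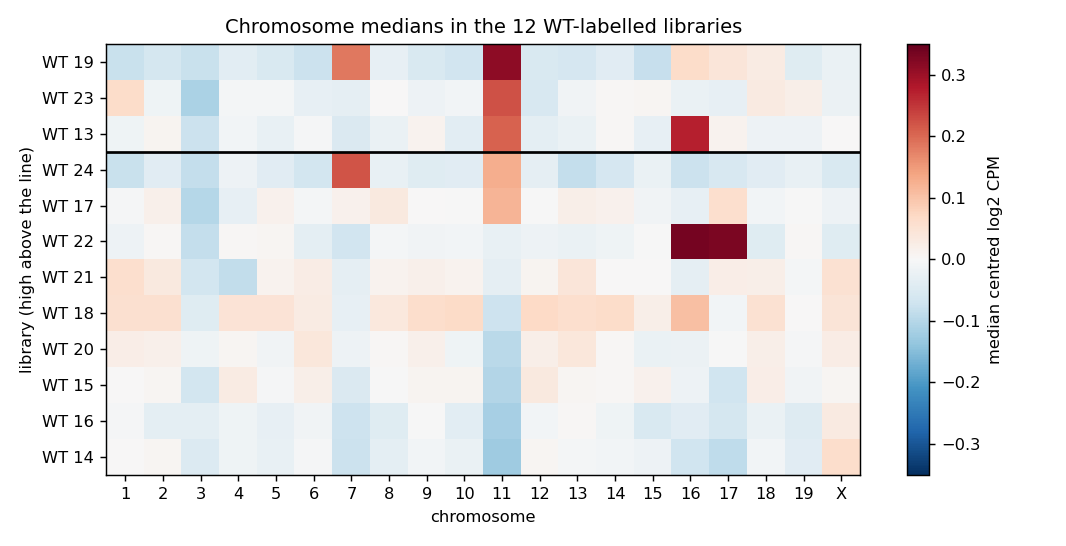
Median centred log2 CPM of each chromosome (columns) in the 12 libraries labelled WT (rows, the 3 high libraries above the line); red is above and blue below the mean of the 24 libraries. Chromosome 11 is red in WT 19, WT 23 and WT 13 at 0.21 to 0.31 and paler in WT 24 and WT 17, while chromosomes 7, 16 and 17 are red in 1 or 2 libraries each.

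Genes off chromosome 11 gave no call. In the edgeR quasi-likelihood test, 0 of 15733 genes had a Benjamini-Hochberg adjusted p under 0.05, 0% of those tested, and the smallest adjusted p was 0.203. The same test called 0 of all 17125 genes, chromosome 11 included, so the lack of calls does not set the other chromosomes apart. At an unadjusted p under 0.05 there were 836 genes, 5.31%, of which 440 were higher and 396 lower in the high set. Over all genes tested, chromosome 11 included, 4.96% were higher and 2.34% lower at that level. DESeq2 called 41 genes off chromosome 11 and 65 on it, and limma with voom called 0 off it and 0 on it. Nothing is read from the counts on chromosome 11, since the sets were chosen on it. A gene without a call is not shown to be equal between the sets. Without WT 17 and WT 24, or without WT 17, WT 21 and WT 24, edgeR again called 0 genes off chromosome 11.

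The smallest p off the chromosome belonged to Slc7a1 on chromosome 5, a transporter of arginine and lysine. It had 25.7, 38.2 and 33.7 CPM in the high set against 45.6, 56.6 and 65.5 CPM for the lowest, median and highest other library. The sets did not overlap, with a log2 fold change of -0.81 ± 0.13 (SE) and an edgeR adjusted p of 0.203. Ltbp2 on chromosome 12, a latent transforming growth factor β binding protein of the matrix, also did not overlap, at 113, 124 and 79.0 CPM against 145 to 398 CPM, with an edgeR adjusted p of 0.258. Large2, a glycosyltransferase of dystroglycan, had 42.1, 46.9 and 44.6 CPM against 52.2 to 80.6 CPM.

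For 2 genes a single high library made the difference. Pip, which encodes prolactin-induced protein, had 689 CPM in WT 19 and 1.41 and 0 CPM in WT 13 and WT 23, against 0.263 to 5.38 CPM. Ctsj, a cathepsin gene, had 60.7 CPM in WT 13 and 0.736 and 0 CPM in WT 19 and WT 23, against 0 to 0.485 CPM.

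Because Trp53 and Ccng1 lie on chromosome 11, the listed p53 targets elsewhere were counted. Of 19 tested, 16 had log2 fold changes above 0, with a median of 0.49 beside -0.01 for all genes off the chromosome. None passed the edgeR threshold. At an unadjusted p under 0.05, 9 were higher and 1 was lower, where 2.80% of all genes off the chromosome were higher and 2.52% lower. Cdkn1a, the cell-cycle inhibitor p21, had 161, 91.6 and 157 CPM against 38.2, 58.2 and 201 CPM, and WT 15 of the other set was the highest. Mdm2, the ubiquitin ligase of p53, had 71.3, 74.6 and 79.9 CPM against 52.0, 60.8 and 79.7 CPM. Eda2r, a receptor of the tumour necrosis factor family, had 6.20, 8.28 and 39.9 CPM against 3.27, 4.69 and 19.5 CPM. These 3 were singled out after their values were seen. Aen, an exonuclease gene, had 28.2, 30.6 and 46.4 CPM against 16.2 to 31.6 CPM, and Bax, the death effector, had 53.8, 83.3 and 114 CPM against 40.3 to 78.0 CPM. Gadd45a, a stress-response gene, was the 1 lower member, at 16.3, 13.6 and 14.4 CPM against 14.4 to 27.3 CPM. The 19 targets summed to 1468 to 1617 CPM in the high set and 842 to 1683 CPM in the other set, so the sums overlapped. The counts depended on WT 23: without it, 16 of the 19 were still above 0, but the median was 0.20 and 1 was higher at an unadjusted p under 0.05. Without WT 17 and WT 24 it was 4, and without WT 17, WT 21 and WT 24 it was 3. It was also 3 in each of the fits with a marker score as covariate, for adipocyte and muscle, for T and B cells or for macrophages, and 6 in limma with voom. Across these alternative fits, 735 to 1539 genes off the chromosome were at that level in either direction, against 836 in the main fit.

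Genes of the unfolded protein and amino acid stress response had no common direction. Of 14 listed genes off chromosome 11, 6 were above 0, with a median of -0.07, and 3 were lower at an unadjusted p under 0.05, Hsp90b1, Pdia4 and Hspa5. Of all genes off the chromosome, 2.52% were lower at that level. Hsp90b1, the chaperone GRP94, had 782, 904 and 849 CPM against 895 to 2179 CPM, and Hspa5, the chaperone BiP, had 660, 754 and 611 CPM against 635 to 1649 CPM. Their edgeR adjusted p-values were 0.514 and 0.651. Ddit3, a transcription factor induced by this stress, had 17.4, 17.8 and 16.4 CPM against 9.90 to 20.3 CPM.

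Cell-cycle genes off chromosome 11 were below 0 in 26 of 27 cases, with a median of -0.12 and 0 members at an unadjusted p under 0.05. Mki67, the proliferation marker, had 129, 254 and 477 CPM against 211 to 605 CPM, and the sum of the list was lowest in WT 13 at 829.7 CPM and near the top in WT 23 at 2600.2 CPM, against 1091 to 2709 CPM in the other set. The direction of this list rested on WT 13, since without it 24 of 27 members were above 0 with a median of 0.23, and without WT 19 the median was 0.01. Without WT 23 it was -0.85, and 21 members were lower at an unadjusted p under 0.05. With marker scores as covariates the median was -0.49 with 9 members lower at that level (adipocyte and muscle), -0.53 with 12 (T and B cells) and -0.57 with 10 (macrophages). Off the chromosome, 1539 genes were at that level in either direction without WT 23. There were 903, 971 and 873 in the covariate fits, in the same order, and 836 in the main fit. The interferon-response genes were above 0 in 16 of 19 cases with a median of 0.36, of which 1, Isg15, had an unadjusted p under 0.05. Isg15, a ubiquitin-like protein induced by interferon, had 244, 80.9 and 86.0 CPM against 39.9 to 119 CPM, and the sum of this list was 4296 CPM in WT 13, 1517 in WT 19 and 1257 in WT 23, against 904 to 3797 CPM in the other set. Without WT 13, 2 of the 19 interferon-response genes were above 0 and the median was -0.41. Subunits of oxidative phosphorylation were above 0 in 11 of 13 cases, with a median of 0.09.

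Most lists of stromal and immune markers had medians below 0 in the comparison, with overlapping sums and no edgeR call. Macrophage markers were above 0 in 3 of 17 cases with a median of -0.33, and summed to 2512 to 4602 CPM against 2808 to 5026 CPM. Csf1r, the receptor of macrophage colony-stimulating factor, had 85.7, 69.8 and 39.8 CPM against 61.6 to 129 CPM. Dendritic cell markers were above 0 in 1 of 13 cases with a median of -0.35, and summed to 502 to 1423 CPM against 730 to 1568 CPM. Adipocyte markers were above 0 in 1 of 13 cases with a median of -0.47, endothelial markers in 3 of 13 with -0.14, and T cell markers in 10 of 16 with 0.02. NK and cytotoxic markers had the opposite sign, above 0 in 9 of 9 cases with a median of 0.51, but in 1 of 9 with a median of -0.44 without WT 13. WT 23 was the lowest of the 12 libraries for the macrophage, dendritic, NK and adipocyte sums. Without it the medians were -0.08 for macrophage, -0.10 for dendritic cell and 0.05 for adipocyte markers, while that for fibroblast markers was -0.46. The part of these markers in the shift of chromosome 11 was not tested. In 3 fits with marker scores as covariates, the chromosome 11 median was 0.24 (macrophage), 0.24 (adipocyte and muscle) and 0.26 (T and B cells). Because the sets were chosen on chromosome 11, these values are a description only.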

How the data were processed

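Bulk RNA sequencing was deposited as whole-number read counts per gene for 24 tumours, and only counts were used. Per the file headers, the authors counted reads over exons with featureCounts 2.0.0 on an annotation of GRCm39. The headers record no strand option, so reads of overlapping or antisense genes cannot be told apart, and no option to count reads placed at several positions. Per the submitters' processing notes, STAR and Subread were also used, with versions not given in the sources used here. The authors' deposited comparison of KO with WT was not used.

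Of 46318 gene IDs, 44749 had a symbol in a RefSeq table. Over 66 pairs of WT-labelled libraries, chi-square per degree of freedom was at least 32.3, so none was a duplicate. The 12 WT-labelled libraries were fitted with edgeR 4.0.16 in R 4.3.3 (filterByExpr, TMM scaling, quasi-likelihood, two-sided, Benjamini-Hochberg threshold 0.05 over all genes). Centred levels used log2 CPM with a prior count of 2. The scripts were tested on simulated data. Alternatives were other scalings, DESeq2 1.42.0, limma 3.58.1 voom, other filters, covariates, windows, all 24 libraries and leaving out libraries.

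The libraries, lists and tests were chosen with earlier results of these data known. Named genes were drawn from up to 5 per chromosome 11 list by level, the 10 highest and 5 lowest fold changes on it, the 5 smallest p-values each way elsewhere and up to 4 members of each other list by p. Others are said to be chosen after their values were seen. Counting error is small beside the spread between tumours at these depths. Not every gene this rule allows is given, and a gene that it would name is not reported here.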

Additional observations from a re-analysis of the deposited data

Results flagged for a closer look

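Among the 9 other libraries, 123 values were screened by Dixon's test, and 10 had 1 library far from the rest, where chance gives about 1 in 20. The median of chromosome 7 was 0.22 in WT 24, that of chromosome 10 was 0.066 in WT 18, and those of chromosomes 16 and 17 were 0.34 and 0.33 in WT 22. Erbb2 was highest in WT 17 at 199.6 CPM, Hspa5 in WT 21 at 1649 CPM, Cdkn1a in WT 15 at 201.3 CPM and Meis1 in WT 18 at 69.4 CPM. Cidea, a lipid droplet gene, was lowest in WT 18 at 0.312 CPM, and so was Rasd1, which encodes a Ras-like GTPase, at 6.27 CPM. The high set of 3 is too small for this screen.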

How the results depend on the processing

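The number of genes called off chromosome 11, 0 in edgeR, was 41 in DESeq2 (19 higher and 22 lower), 2 when the fit held all 24 libraries (Slc7a1 among them), and 0 to 1 with any single library left out, the 1 being Gm6958 without WT 22. The median over chromosome 11 genes, 0.27, ran from 0.24 to 0.30 without single libraries. It was 0.34 without WT 17 and WT 24 and 0.35 without WT 17, WT 21 and WT 24, both added after seeing the data. The lowest window median, 0.21 with windows of 10 Mb, was 0.067 with windows of 5 Mb, where all 24 windows were above 0. The difference in chromosome 11 medians ran from 0.25 to 0.30 without single libraries. Without single libraries, the log2 fold change of Pip ran from -1.06 (without WT 19) to 7.85 (without WT 23), that of Mki67 from -0.92 (without WT 23) to 0.035 (without WT 13), and that of Btn1a1, a milk fat globule gene, from -0.86 (without WT 13) to 2.53 (without WT 23). The cause was not tested. No scaling moved the median of all genes by 0.1 or more. No paired analysis was possible because the high and other libraries carry different numbers within 1 label, and the numbers of KO and WT do not overlap. The directions of the cell-cycle and interferon lists reversed without WT 13, at medians of 0.23 and -0.41. Set membership rests on these reads, and DNA was not measured.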
